A study of Drosophila melanogaster with 4 samples.

Results

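A locus of the testis transcript catalogue was counted as unspliced and coding when every one of its transcripts had exactly 1 exon and at least 1 transcript carried a predicted coding sequence (CDS). These loci were selected on the number of exon lines and on the presence of CDS lines, so neither property is a result here. They numbered 909 of the 9100 loci (9.99%, exact 95% interval 9.38 to 10.6%) and held 1499 of the 40180 transcripts, 1462 of them with a CDS. The remaining loci were 6854 coding loci with at least 1 spliced transcript, 686 unspliced loci without a CDS and 651 spliced loci without one. Shares are given with exact binomial 95% intervals and medians with 95% intervals from order statistics. Loci are not replicates, so these intervals cover counting error only.

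The catalogue came from long-read sequencing (PacBio Iso-Seq) of polyadenylated RNA from Drosophila melanogaster testes. Of the 4 samples, 2 were control males of genotype bamGAL4 and 2 were bamGAL4/KmgRNAi males, in which the driver, active in spermatogonia and early spermatocytes, directs RNA interference against kmg, a zinc-finger protein of spermatocytes. All 4 samples shared the driver and the same regime, with crosses held for 3 days at 25 °C, eggs and early larvae moved to 29 °C, and 150 pairs of testes taken per sample from males 0 to 2 days old. The deposited annotation merges all 4 libraries and carries no read count, sample or gene name, so depth is unknown and no level or difference between control and knockdown could be read for any locus.

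Genes without introns are transcribed by RNA polymerase II and polyadenylated like others but skip the spliceosome, so their mature RNA has the length of the gene. In Drosophila they include many heat shock genes, whose products are chaperones, and many copies that arose from spliced parent genes through reverse transcription of a mature RNA. A number of such copies are expressed mainly in the testis, where they replace or supplement a general subunit during sperm formation. In a catalogue of this kind a listed unspliced transcript can also be an unspliced precursor, or a part of a longer gene whose introns were not covered.

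Most unspliced coding loci were listed with a single transcript. This held for 563 of 909 (61.9%, 58.7 to 65.1%), against 1342 of 6854 spliced coding loci (19.6%, 18.6 to 20.5%). The share of coding loci that met the rule fell with the number of listed transcripts, as it must when every transcript has to be unspliced. It was 29.6% of the 1905 coding loci with 1 transcript, 15.5% of the 1353 with 2, 7.96% of the 992 with 3 and 0 of the 1027 with 10 or more, which allows up to 0.359%. Just outside the rule lay 331 coding loci with exactly 1 spliced transcript beside at least 1 unspliced one, 198 of them with 2 transcripts in all. The locus of hubl came closest by number, with 1 spliced transcript among 8, followed by CG4572 and Klp59D with 1 among 7. At least 1 unspliced transcript was listed in 1678 of the spliced coding loci.

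Transcripts carry running numbers within a locus, and not all numbers are listed. The highest numbers of the unspliced coding loci summed to 3298, of which 1499 (45.5%) were listed, against 34.1% in spliced coding loci. Whether the 1799 unlisted transcripts were spliced cannot be told from the file. In 296 of the loci the highest number was 1, so that no lower number was missing.

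Gene names were assigned from the position of the transcript with the longest CDS, which stands for its locus throughout, in a table of RefSeq genes (assembly Release 6 plus ISO1 MT). A gene was found for 882 of 909 loci (97.0%, 95.7 to 98.0%), and these took 876 different genes. Of the named loci 846 lay on protein-coding genes, 21 on lncRNA genes, 13 on antisense RNA genes and 2 on pseudogenes. Both transcript ends lay within 100 bp of the 2 gene ends in 422 loci (46.4%, 43.1 to 49.7%), only the 5′ end in 109, only the 3′ end in 166, and neither end in 185, of which 130 lay wholly inside the gene span. The table gives no strand, so a transcript on the other strand could receive the same name. For 120 of the loci the gene was also given to a locus on the other strand, which was true of 9 of the 422 with both ends matched and of 69 of the 130 inside a span.

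The match to annotated ends was closer at the 3′ end than at the 5′ end. Among the 882 named loci the 3′ end lay within 10 bp of the gene's end in 412 (46.7%, 43.4 to 50.1%) and at the same base in 166. The 5′ end lay within 10 bp in 187 (21.2%, 18.5 to 24.0%) and at the same base in 18. At 100 bp the shares were 66.7% at the 3′ end and 60.2% at the 5′ end. Spliced coding loci also matched only the 3′ end more often, in 23.0% against 16.7% for only the 5′ end, and both ends in 38.4%. At spans of at most 2000 bp both ends matched in 49.4% of unspliced and 52.8% of spliced coding loci. Unspliced coding loci with both ends matched mostly lay on genes for which RefSeq has a single transcript, in 377 of 422 (89.3%, 86.0 to 92.1%). Of the loci inside a gene span, 26 of 130 (20%, 13.5 to 27.9%) lay on such a gene. Over all named loci it was 627 of 882 (71.1%, 68.0 to 74.1%), against 2433 of 6605 named spliced coding loci (36.8%, 35.7 to 38.0%).

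**Figure D1:**
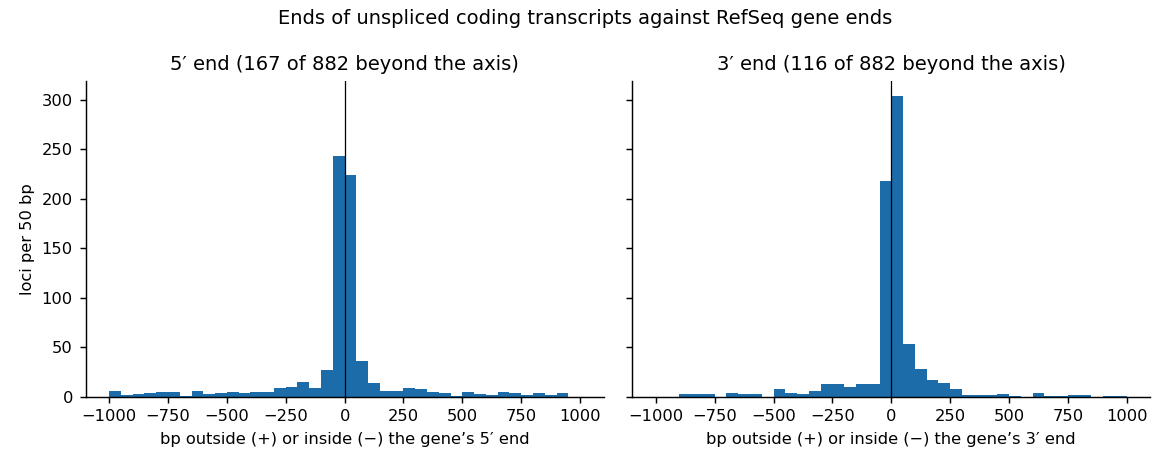
Number of unspliced coding loci per 50 bp of distance between the end of the transcript with the longest CDS and the matching end of its RefSeq gene, for 5′ ends (left) and 3′ ends (right) of the 882 named loci, with positive distances outside the gene. Both distributions peak at 0, and the title of each panel gives the loci whose distance exceeded 1000 bp.

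Taken over all loci, unspliced coding loci were shorter than spliced coding loci in every part of the transcript. The median transcript length was 1200 bases (1151 to 1237), against 2228 (2178 to 2261) in spliced coding loci. The median CDS was 705 bases (660 to 753) against 1455 (1419 to 1485), and the CDS of all 909 loci was a whole number of codons. Median UTRs were 118 bases (112 to 126) at the 5′ end and 170 (157 to 181) at the 3′ end, against 232 (223 to 242) and 217 (211 to 224). The CDS took up a median of 66.5% of the transcript (65.0 to 68.6%), against 72.1% (71.4 to 72.6%). The longest CDS was taken from more transcripts in spliced loci. Among loci with 1 transcript the median length was 1033 bases (988 to 1089) unspliced and 1383.5 (1335 to 1443) spliced, and the median CDS was 600 (558 to 645) and 931.5 (891 to 984). The median 5′ UTR there was 109 bases (101 to 116) unspliced and 121 (114 to 129) spliced, with intervals that overlap. The 3′ UTR had the reverse order there, at 149 bases (137 to 160) unspliced and 133.5 (127 to 144) spliced, also with intervals that overlap.

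How the ends matched the annotated gene separated the loci by coding length. Loci with both ends matched had a median CDS of 816 bases (750 to 918) in a median transcript of 1137.5 bases, with UTRs of 99 and 133 bases, and the CDS filled 76.4% (74.3 to 78.7%) of the transcript. Loci with only the 3′ end matched had a longer 5′ UTR, at 228 bases (149 to 322), and those with only the 5′ end matched had a longer 3′ UTR, at 273 bases (215 to 323). Their CDS medians of 730.5 and 864 bases stayed near that of the loci with both ends matched. Loci inside a gene span had a transcript of similar length, 1241 bases (1129 to 1362), but a CDS of 382.5 bases (351 to 438) that filled 36.7% (31.5 to 42.6%) of it. The 27 loci without a gene had a median CDS of 360 bases (300 to 450), and 1 of them was the only locus of the class on the Y chromosome, at Y:204367-205107 on the minus strand, with a CDS of 125 codons. The 34 loci on lncRNA and antisense RNA genes had a median CDS of 330 bases (312 to 423), which filled 37.3% of the transcript.

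**Figure D2:**
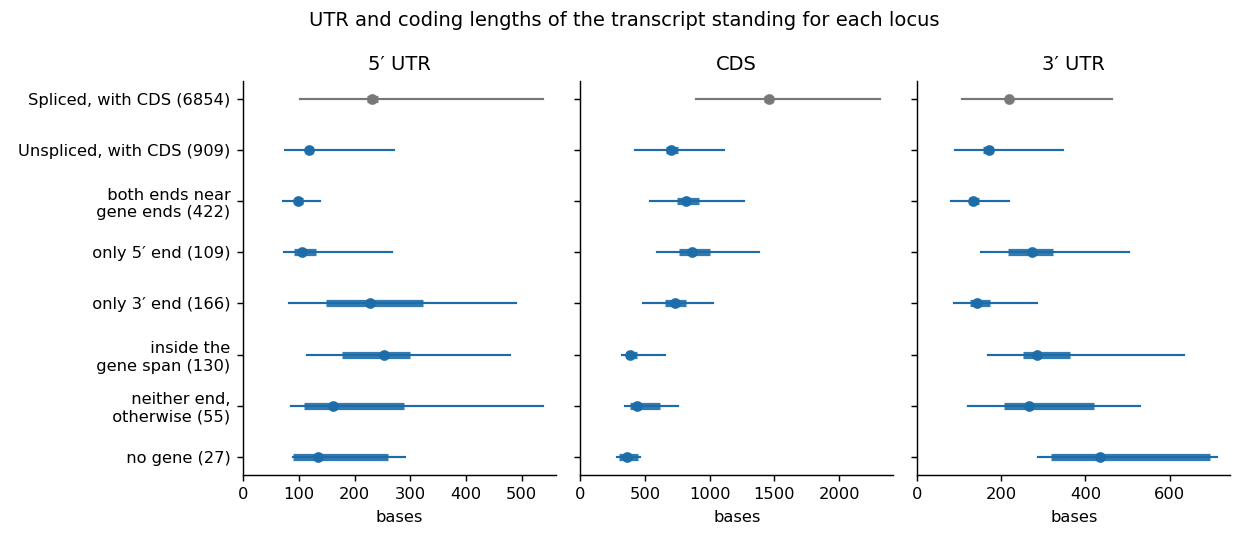
Lengths in bases of the 5′ UTR, CDS and 3′ UTR of the transcript standing for each locus, in spliced coding loci (grey) and in unspliced coding loci (blue), the latter also by how their ends matched the RefSeq gene. Points are medians, thick bars their 95% intervals, thin bars the middle 50% of loci, and numbers in brackets the loci; the CDS is shortest in loci inside a gene span and in loci without a gene, with medians of 382.5 and 360 bases.

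Very short predicted CDS were more frequent than in spliced coding loci, with 41 of 909 under 300 bases (4.51%, 3.26 to 6.07%) against 44 of 6854 (0.642%, 0.467 to 0.861%). At spans of at most 2000 bp the shares were 4.98% (3.51 to 6.83%) and 1.71% (1.14 to 2.47%). Of the 41, 16 lay inside a gene span and 5 had both ends matched. The shortest, chosen after the values were seen, were 12 bases long and lay inside the spans of eyg and CG17999. The CDS reached within 3 bases of the 5′ end of the transcript in 21 loci (2.31%, 1.44 to 3.51%), against 0.481% (0.332 to 0.676%) of spliced coding loci, and within 3 bases of the 3′ end in 11 (1.21%, 0.606 to 2.15%), against 0.978%.

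At the other extreme stood long open reading frames without an intron. The longest belonged to CG13991 (2L:6139225-6145001, plus strand), with 5304 bases or 1768 codons in a transcript of 5679 bases. It was followed by Toll-6 (3L:15336696-15341877) with 4545 bases, Toll-7 (2R:19826578-19831396) with 4341, CG12105 (3L:1610696-1615418) with 4338 and mus101 (X:13722203-13727114) with 4278. Toll-6 and Toll-7 are transmembrane receptors of the Toll family, and mus101 is the fly relative of TopBP1, a scaffold of DNA replication and its checkpoint. The transcripts of Toll-6 and Toll-7 started within 4 bases of the gene's 5′ end but ended 2438 and 1577 bases before its 3′ end. For mus101 both ends lay within 5 bases of the gene ends.

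Long UTRs marked a different set. The longest 5′ UTR was on Rtca, an RNA cyclase (X:2070176-2075928), with 3535 bases before a CDS of 1086, and that transcript began 2237 bases outside the annotated gene. The next were 3363 bases at 3L:16266361-16271573, where other transcripts matched CG34248 and CG4950, and 3351 at 3R:3383083-3387673, where no gene was assigned. A 5′ UTR of 2625 bases was listed over CG30110, where other transcripts matched CG30325. One of 2587 lay over Iru, where another transcript matched the proteasome gene Prosbeta3. In both, the CDS lay downstream of the span of the named gene, so the 5′ UTR ran across that gene. The longest 3′ UTR belonged to Orct2, an organic cation transporter (3R:24273031-24278792), with 3659 bases, ending 3064 bases beyond the gene. The next 3 followed short predicted CDS, of 38 codons inside the span of Cpr73D, 19 inside that of ca and 102 over that of skd, with 3′ UTRs of 3631, 3524 and 3116 bases. Tollo, a further Toll family receptor, had 2671 bases after a CDS of 4041, and its ends lay within 1 base of the gene ends.

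Spread of ends could be measured in the 346 loci with at least 2 transcripts. The distance between the outermost and innermost 5′ end had a median of 245.5 bp (183 to 310), and that of 3′ ends 136.5 bp (120 to 171). The 5′ spread exceeded 1000 bp in 62 loci and the 3′ spread in 50, while 37 loci had 1 single 5′ end and 41 a single 3′ end. In 23 loci the transcripts matched at least 2 genes, so the spread there can include the distance between genes. How many of the wide spreads came from such loci was not counted. Loci with at least 3 transcripts, 136 in number, had medians of 716.5 bp (511 to 910) and 316.5 bp (228 to 482). No 2 transcripts of a locus lay close at both ends. Over all 1024 pairs of transcripts within these loci the larger of the 2 end differences was never below 82 bp, although the 5′ ends alone lay under 80 bp apart in 314 pairs and the 3′ ends alone in 385. In the 157 pairs of the unspliced loci without a CDS the smallest value was 80 bp, and among 13528 pairs of spliced coding transcripts with the same introns 12 differed by less than 80 bp at both ends. Differences of under 80 bp at both ends are therefore not listed for these loci, and a locus with 1 transcript need not have had a single start or a single end.

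**Figure D3:**
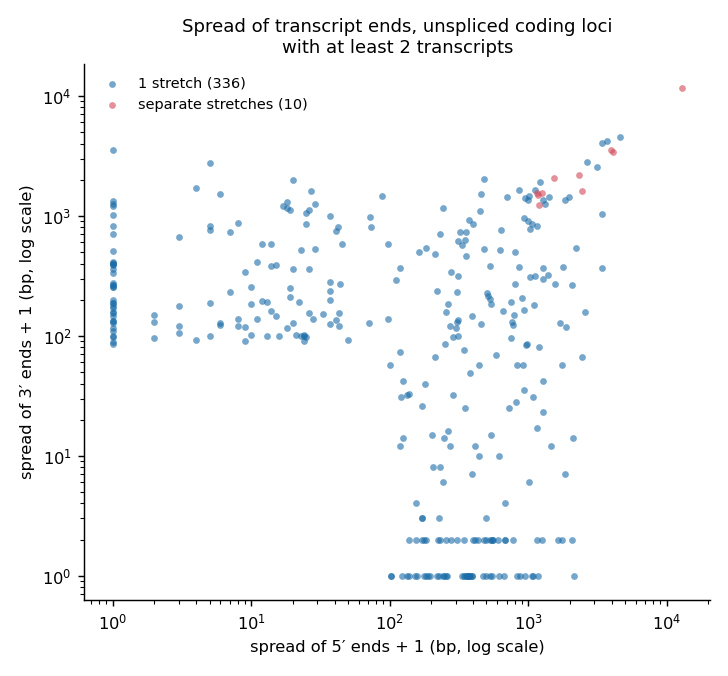
Spread of 3′ ends against spread of 5′ ends (bp plus 1, both axes logarithmic) for the 346 unspliced coding loci with at least 2 transcripts, with the 10 loci whose transcripts fall into separate stretches in red. The lower left corner is empty: no locus has 2 transcripts whose ends both lie within 80 bp of each other.

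Compared with spliced loci, the spread of 3′ ends depended on which spliced loci were used. Among loci with exactly 2 transcripts, both coding, the median 3′ spread was 98 bp (66 to 120) in 199 unspliced loci and 4 bp (2 to 7) in 1073 spliced loci. Spliced transcripts can differ by their introns with the same ends. Among the 402 spliced loci whose 2 transcripts had the same introns the median was 110.5 bp (94 to 121). The corresponding 5′ spread was 87 bp (32 to 152) in unspliced loci, 82 bp (54 to 109) in all such spliced loci and 44 bp (30 to 82) in those with the same introns, and these intervals overlap.

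The CDS end was shared more often than the CDS start. Of the 334 loci with at least 2 coding transcripts, 180 (53.9%, 48.4 to 59.3%) had the same CDS in all of them. The CDS end was shared in 290 (86.8%, 82.7 to 90.3%) and its start in 193 (57.8%, 52.3 to 63.1%). A shared end with different starts was found in 110 loci, a shared start with different ends in 13 and neither in 31. Isoforms of these loci therefore differed mostly in UTR length or in where the CDS began. For loci with exactly 2 coding transcripts the CDS end was shared in 94.0% (89.7 to 96.8%) of 199 unspliced and 85.9% (83.7 to 88.0%) of 1073 spliced loci. The spliced pairs can also differ by their introns, so the 2 shares are not like for like.

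The 10 loci with the most transcripts are described in turn. HBS1, a GTPase of ribosome rescue (3L:1862881-1866147), had 7 transcripts with 7 different 5′ ends spread over 1748 bp but 3′ ends within 56 bp, and 2 CDS models. For ssp5 (3R:12032697-12035524) 7 transcripts with 6 starts over 2055 bp gave 5 CDS models, the longest of 2136 bases. CG11619 (3L:18985635-18988351) likewise had 6 transcripts, a 5′ spread of 1562 bp and a 3′ spread of 270 bp. CNBP, a zinc-knuckle protein that binds nucleic acids (2R:22934569-22936932), had the same CDS of 498 bases in all its coding transcripts, and its ends spread over 1001 bp at the 5′ side and 1343 bp at the 3′ side. CG10376 (2L:18700606-18703101) had starts within 373 bp and 6 different 3′ ends over 913 bp.

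S-Lap7 encodes a leucyl aminopeptidase-like protein of the S-Lap family, whose members are abundant in sperm. Its locus (2R:13778126-13782943, minus strand) held 8 transcripts, 5 of them with the full CDS of 1584 bases or 528 codons. Their 5′ UTRs were 140, 281, 283, 368 and 1414 bases long, so a single reading frame followed 5 leaders. The 3′ UTR of the 5 was 143 bases in 3 and 228 and 233 in the other two. The shorter coding models had 1368 and 69 bases, and a transcript of 1400 bases without a CDS lay 187 bp upstream of the others. The whole locus lay inside a 27188 bp intron of the locus of Cpr50Ca on the other strand.

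In the remaining 4 of these 10 loci, more than 1 gene fell into a single locus. The locus at 2R:7178373-7185298 held transcripts of CG33140, CG30385 and CG30384 with CDS of 2163, 1611 and 2127 bases, and a transcript of 4629 bases ran from the start of the first to the end of the second. At X:10852449-10857367 transcripts with a CDS of 2016 bases matched feo, which bundles microtubules of the spindle midzone, and those with 1824 bases matched its relative sofe. At 3L:9376424-9379837, 2 transcripts with a CDS of 627 bases matched the small heat shock gene Hsp26, and 4 matched Hsp67Ba with a CDS of 1338 bases or, in 1 of them, 948. The gap between these stretches was 293 bp. The locus with the most transcripts of all, 9 at 2R:17877543-17882593, lay over CG30110 and CG30325, and only 3 of the 9 had a CDS.

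**Figure D4:**
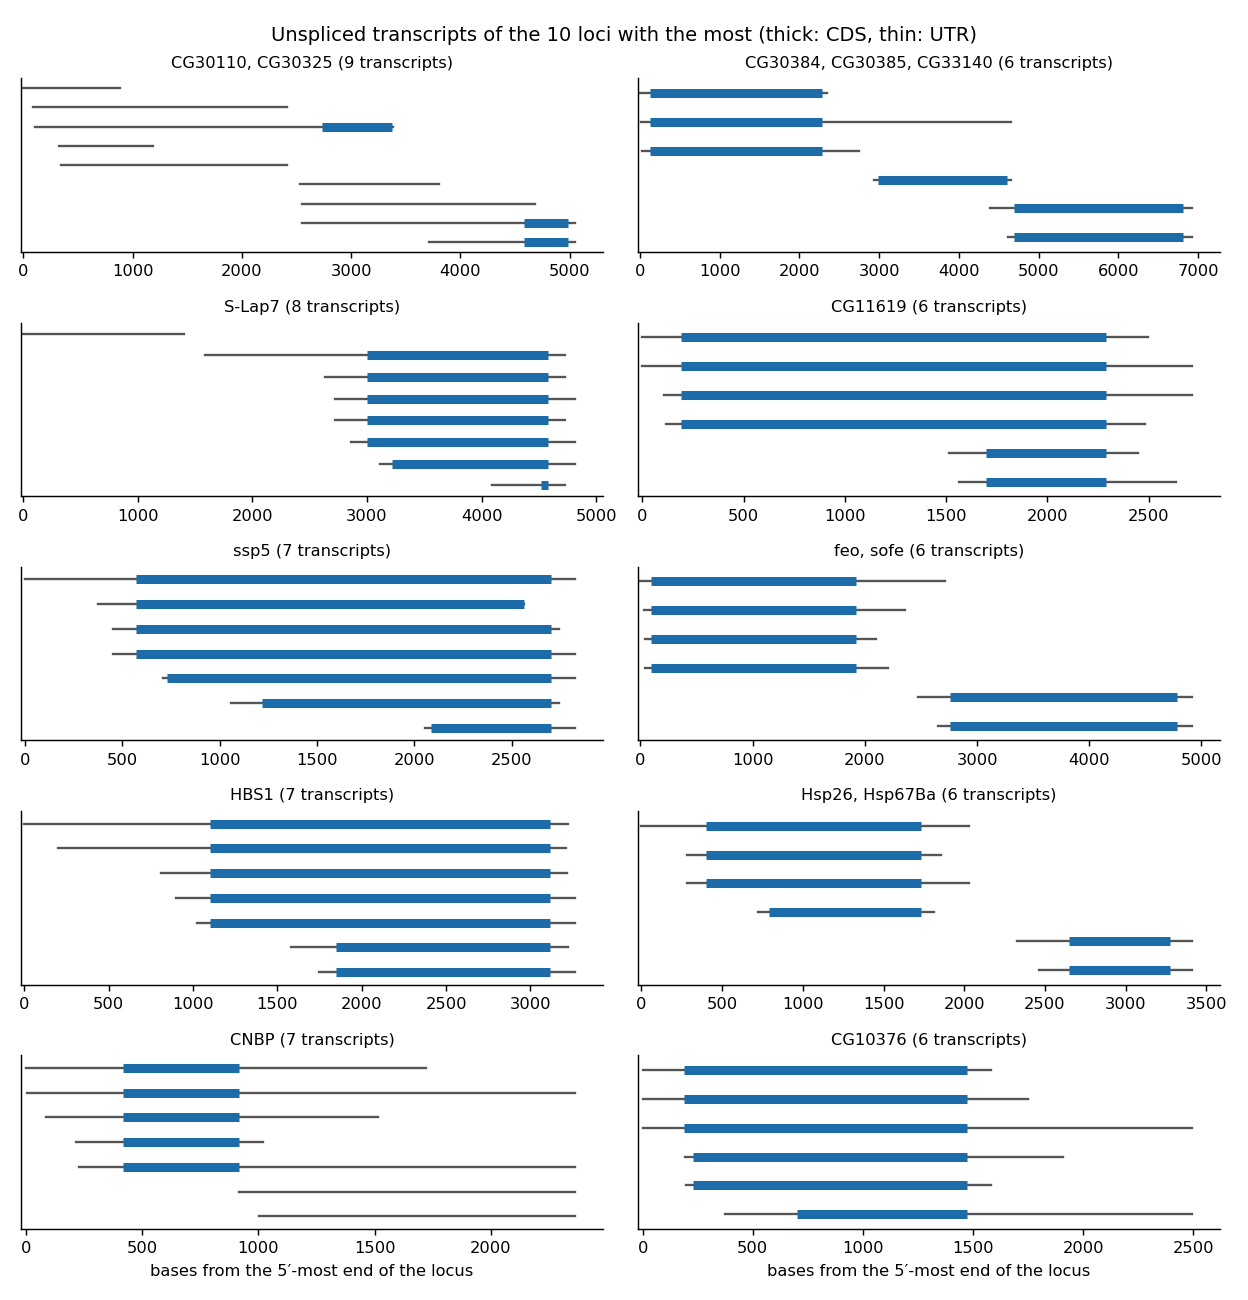
Transcripts of the 10 unspliced coding loci with the most transcripts, 1 line per transcript, drawn by distance in bases from the 5′-most end of the locus; thick blue is the CDS and thin grey the UTR or a transcript without a CDS. Starts are staggered ahead of a shared CDS end in HBS1 and S-Lap7, 3′ ends are staggered in CG10376, and separate blocks mark feo with sofe and Hsp26 with Hsp67Ba.

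In 10 of the 346 loci (2.89%, 1.39 to 5.25%) the transcripts did not form 1 unbroken stretch. The widest gap, 10835 bp at 3L, lay in the locus named after alphaTub67C, a maternal alpha-tubulin, whose 2 transcripts gave a 5′ spread of 12906 bp. The locus of GC, a gamma-glutamyl carboxylase (3L:1623179-1628374), had a gap of 1184 bp, and its transcripts matched GC and CG13928. The other 8 gaps were 64 to 942 bp long. Among the 3′ ends, besides the loci above, Orct2 spread over 3516 bp behind a single start.

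Position relative to other loci was not used to choose the loci. Unspliced coding loci lay wholly inside an intron of another locus in 158 cases (17.4%, 14.97 to 20.005%), against 502 of 6854 spliced coding loci (7.32%, 6.72 to 7.97%) and 196 of 686 unspliced loci without a CDS (28.6%, 25.2 to 32.1%). A short locus can lie in an intron more easily. At spans of at most 2000 bp the shares were 16.0% (13.4 to 18.9%) of 723 unspliced and 11.9% (10.3 to 13.5%) of 1634 spliced coding loci. The difference in this class lay on the same strand, with 6.36% (4.70 to 8.40%) against 2.08% (1.45 to 2.90%), while on the opposite strand the shares were 9.68% (7.63 to 12.1%) and 9.79% (8.39 to 11.3%). Of the 61 same-strand cases 24 had both ends within 100 bp of the ends of a RefSeq gene and 11 lay inside a gene span, and of the 97 opposite-strand cases 49 and 16 did. Whether same-strand cases are parts of the host's precursor was not tested.

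**Figure D5:**
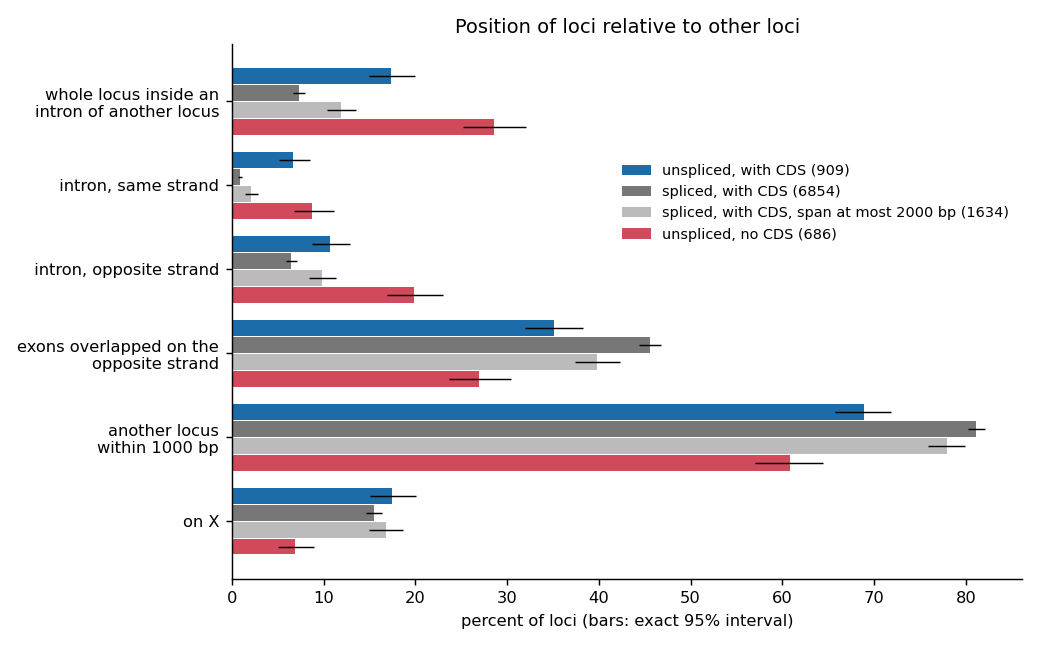
Percent of loci by position, for unspliced coding loci (blue), all spliced coding loci (dark grey), spliced coding loci spanning at most 2000 bp (light grey) and unspliced loci without a CDS (red), with exact 95% intervals as error bars. Unspliced coding loci stand at 17.4% inside introns, between the spliced coding loci at 7.32% and the unspliced loci without a CDS at 28.6%.

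The host was a spliced coding locus in 155 of the 158 cases, and its intron had a median length of 14843 bp on the same strand and 9985 bp on the opposite strand. The host with the most was a locus named lncRNA:CR44357, with 4, followed by loci named CG33223 and ome with 3 each. Host names were assigned by position without strand, so the host gene is uncertain. The first is a coding locus despite its lncRNA name, and the name CG33223 was also given to an unspliced coding locus. Nested loci were not small within their class: the median CDS was 729 bases (555 to 954) on the same strand and 783 (615 to 912) on the opposite strand. Those with the longest CDS were CG13991, CG12105, t-Grip128, Spps and Rat1. CG13991 lay in an intron of 19975 bp of a locus on the other strand, and CG12105 in one of 8229 bp of the CG18170 locus. t-Grip128, a testis-expressed relative of a gamma-tubulin ring protein (3L:4993840-4996949), had 1 transcript with a CDS of 2928 bases. It lay in a 24631 bp intron of a same-strand locus named Con. A neighbouring locus on the other strand was also named Con, so the strand of t-Grip128 relative to that gene is not established. Spps, a zinc-finger factor of Polycomb silencing (3R:24223436-24226648), had 2751 bases in a 10199 bp intron of the locus named CG17786, on the same strand. Rat1, a nuclear 5′ to 3′ exoribonuclease (2L:6908090-6911423), had 2727 bases in a 4045 bp intron of the locus named Wee1 on the opposite strand. It had 1 start and 2 ends 393 bp apart.

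Exons of a locus on the opposite strand overlapped 319 of the unspliced coding loci (35.1%, 32.0 to 38.3%), fewer than the 45.5% (44.4 to 46.7%) of spliced coding loci. At spans of at most 2000 bp the shares were 35.0% (31.5 to 38.6%) and 39.8% (37.5 to 42.3%), with intervals that overlap. The overlap had a median of 545 bp. The CDS was covered at least in part in 204 of the 319 (63.9%, 58.4 to 69.2%). The share of overlapped spliced loci was 44.1% (42.4 to 45.9%), with the CDS taken as the whole stretch from start to end. That stretch includes introns, so an overlap there also counted and the shares are not like for like. By layout, 135 of the 319 lay wholly within the other locus, 110 overlapped at their 5′ end and 90 at their 3′ end. Of the loci inside a gene span 69 of 130 (53.1%, 44.1 to 61.9%) were overlapped, with the CDS covered in 59 of the 69, and of those with both gene ends matched 113 of 422 (26.8%, 22.6 to 31.3%).

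Neighbours were somewhat farther away. Another locus lay within 1000 bp of 626 loci (68.9%, 65.7 to 71.9%), against 81.1% (80.2 to 82.1%) of spliced coding loci. At spans of at most 2000 bp the shares were 69.2% (65.6 to 72.5%) and 78.0% (75.9 to 79.96%). Loci with overlapping spans count as near, which covers 451 of the 626. At spans of at most 2000 bp such overlap was alike, at 49.4% of unspliced and 49.9% of spliced coding loci. On each side the nearest locus without overlap was also taken, over all spans. It was divergent, with its start within 500 bp upstream, for 80 (8.80%, 7.04 to 10.8%), against 12.7% (11.9 to 13.5%) of spliced coding loci. A convergent one lay within 500 bp downstream for 71 (7.81%, 6.15 to 9.75%), against 12.9% (12.1 to 13.7%). The X chromosome held 159 of the loci (17.5%, 15.1 to 20.1%) and 15.5% (14.6 to 16.3%) of spliced coding loci, with overlapping intervals. Among unspliced loci without a CDS the share on X was 6.85% (5.08 to 9.01%), and among unspliced coding loci with both gene ends matched it was 21.8% (17.95 to 26.05%).

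Most of the loci stood alone along the chromosome, and 200 of the 909 lay in 87 runs of 2 or more neighbours of the same class. The longest run had 5 loci over 11442 bp on 2R (18398393-18409834), all on the plus strand, and held the glutathione S-transferase genes GstE1, GstE2, GstE3, a locus joining GstE5 and GstE6, and GstE9. These enzymes couple glutathione to toxic compounds and oxidation products. A run of 3 on 3R (12371944-12376573) held GstD2, GstD3 and GstD5, and GstD9 lay in a neighbouring run with MBD-R2 and Tim17a1. The counts of gene lists from here on stand beside the 11.7% (11.002 to 12.4%) of all 7763 coding loci that were unspliced, and no list was tested against that share. The units differ, since lists count genes, including those without a locus, and 2 genes can share a locus. In all, 10 of the 25 GstD and GstE genes were in unspliced coding loci and 4 in spliced ones, and 11 had no locus. Their CDS ran from 600 to 675 bases except in GstD5, whose single transcript matched both gene ends within 13 bases and yet had a CDS of 351 bases after a 5′ UTR of 344. In the GstE5 and GstE6 locus 2 transcripts of 732 and 741 bases matched the separate genes, and another of 2157 bases ran across both.

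Among heat shock genes 7 of 18 were in unspliced coding loci, 6 were in spliced loci and 5 had no locus. The flies developed at 29 °C in all 4 samples. Of the small heat shock chaperones, Hsp23 (3L:9381886-9382771) had 2 transcripts, the longer with both gene ends matched and a CDS of 561 bases and the other with 513, and Hsp27 (3L:9384065-9384941) had 2 with a CDS of up to 642 bases. Hsp68 (3R:24055080-24057436) had 5 transcripts, starts over 956 bp, 3′ ends over 82 bp and a CDS of 1908 bases. Hsp70Ab, with 1 transcript and a CDS of 1929 bases, was the only Hsp70A or Hsp70B copy with a locus. These copies are nearly identical, so the assignment to this copy is uncertain. Hsp60B, a mitochondrial chaperonin of the testis (2L:727862-731312), had 5 transcripts, all with a CDS of 1947 bases, whose 5′ ends spread over 637 bp and 3′ ends over 754 bp.

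Testis versions of proteasome subunits, which replace general subunits during sperm formation, had 4 of 14 genes in unspliced coding loci, 9 in spliced ones and 1 without a locus. Prosalpha3T, a 20S alpha subunit, had 2 transcripts with starts 2 bp apart, a 3′ spread of 120 bp and a CDS of 756 bases. Prosalpha6T, another alpha subunit, matched both gene ends and had a CDS of 870 bases. Prosbeta5R2 had a 3′ spread of 863 bp behind starts 7 bp apart, and a CDS of 840 bases. Rpn12R, related to a lid subunit, shared its locus with ind, and the 3′ spread of that joint locus was 1554 bp.

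Among other genes of sperm formation 0 or 1 gene per list met the rule. Of the testis mitochondrial paralogues 1 of 10 did, ttm3, a Tim50 relative with 1 transcript and a CDS of 816 bases, and 8 were in spliced loci. Of the 19 sperm chromatin and tail genes none did, with 15 in spliced coding loci and 4 in loci without a CDS. Of the meiotic arrest genes, which switch on transcription in spermatocytes, 1 of 13 did, comr (2R:21864871-21866881), a subunit of the testis-specific meiotic arrest complex, with 1 transcript and a CDS of 1803 bases whose ends lay within 22 bases of the gene ends. The Y-linked phosphatases Pp1-Y1 and Pp1-Y2 were both listed without a CDS. Among 13 proneural and Notch target genes only E(spl)m8-HLH, a repressor of the bHLH class, had a locus, with 1 transcript that began 657 bases outside the gene. A gene in a spliced locus may itself lack introns where its locus was joined to a spliced neighbour.

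Further families were picked after the values were seen, and their counts are descriptions. Toll receptors had 4 of 8 genes in unspliced coding loci, with 18w beside Toll-6, Toll-7 and Tollo, each with 1 transcript and a CDS of 4041 to 4545 bases, and 1 in a spliced locus. The protein phosphatase 1 group had PpD5, PpD6, PpN58A and PpY-55A, 4 of 10, with CDS of 945 to 1011 bases. Among components of mitochondrial protein import 4 of 11 did, Tim17a1, Tim17a2, ttm3 and tomboy40, the last a Tom40 relative with 4 transcripts that shared 1 start and ended over 410 bp. Mediator, which links transcription factors to RNA polymerase II, had MED8, MED20, MED25 and MED30, 4 of 29. The heterochromatin protein 1 group had HP1b, HP1c, HP6 and HP1D3csd, 4 of 11, the last with a CDS of 150 bases in a transcript that matched only the 3′ end. Neprilysin-like metallopeptidases had 6 of 26, with CDS of 1887 to 2226 bases. In spliced coding loci lay 18 Mediator genes, 8 Neprilysin-like, 6 of mitochondrial import, 4 of the phosphatase 1 group and 3 of the heterochromatin protein 1 group.

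Markers of the cells a testis dissection can hold were looked up by locus alone, since no level is given. Of 11 spermatogonial and spermatocyte markers 10 were given a coding locus, as were all 7 spermatid and all 4 cyst cell markers. The locus counted for nos carries the name Nos, a different gene, so a locus of nos itself is not shown. Among accessory gland markers 2 of 5 had a coding locus, all 5 muscle markers did, and none of the 5 fat body markers had a locus. The only markers found in unspliced coding loci were comr and tj, a Maf factor of somatic cyst cells (2L:19464285-19467755). The tj locus had 1 transcript, a CDS of 1530 bases and a 3′ UTR of 1464.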

How the data were processed

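The authors deposited 1 annotation of transcripts, exons and CDS parts, merged from the 4 Iso-Seq libraries. Its own name mentions TAMA, correction, filtering and tappAS (settings: not stated). The deposited values used are positions in bp and the reading frame, with no counts, and BDGP6 and dm6 are the builds in the submitters' processing notes. Lengths, overlaps and end distances were computed from these positions with Python 3.11.15, pandas 2.3.3 and scipy 1.17.1. The transcript with the longest CDS stood for its locus. A transcript took the RefSeq gene whose span, extended by 200 bp, held at least 50% of it and overlapped best. No test was run. The procedure recovered 574 of 574 simulated loci. No simulated locus held several genes, and the names of nested and antisense loci were not checked.

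Named are the 10 loci with the most transcripts, the 5 with the longest CDS, 5′ UTR and 3′ UTR, the 5 with the widest spread at each end among loci with at least 3 transcripts, the 5 nested loci with the longest CDS, and members of gene lists. The loci and lists were chosen with earlier results of these data known, the families were picked after the values were seen, and so were alphaTub67C, eyg, CG17999 and the loci named just outside the rule, as hosts or along runs.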

Additional observations from a re-analysis of the deposited data

How the results depend on the processing

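Each value was recomputed under the alternatives, 101 values in all, of which 70 stayed within the interval of the reported value (for the number of loci, within 1.5 times) and 31 did not. Some of the 70 could not move. The setting without exon overlap on the same strand removed no locus, and the spreads already required at least 2 transcripts. With at least 2 transcripts per locus 346 loci remained, with medians of 1602.5 bases for the transcript, 922.5 for the CDS, 145 for the 5′ UTR and 227 for the 3′ UTR, and both gene ends were matched in 43.1%. With both gene ends matched, chosen after seeing the data, 422 remained, with medians of 1137.5, 816, 99 and 133 bases, a 3′ spread of 117 bp, 26.8% overlapped on the opposite strand, 64.2% with a neighbour within 1000 bp and 21.8% on X. With 1 as the highest listed number, also chosen after seeing the data, 296 remained, with 877.5, 490.5, 105 and 142.5 bases, 63.2% with a neighbour and 54.4% with both gene ends matched. The share overlapped on the opposite strand was 27.0% for at least 100 bp of exons and 44.0% for spans. The share inside introns was 10.9% for hosts on the opposite strand. Another locus lay within 500 bp of 64.4% and within 2000 bp of 75.8%. With at least 3 transcripts the spreads were 716.5 bp (5′) and 316.5 bp (3′). Both gene ends were matched in 38.1% at 50 bp and in 54.5% at 200 bp. The median 3′ spread of spliced loci with 2 coding transcripts moved from 4 to 110.5 bp when the same introns were required, a comparison chosen after seeing the data, so that it turned from below to above the 98 bp of unspliced loci. The 3′ UTR was shorter than in spliced loci over all loci (170 against 217 bases) and longer among those with 1 transcript (149 against 133.5). No paired analysis was possible because the catalogue carries no sample, and for the same reason no replicate could be left out. Depth is unknown, so a gene without a locus is not shown to be unexpressed.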
